A study of Mus musculus with 18 samples.

Results

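Reelin signaling is described here in the RNA-seq and ATAC-seq libraries of mouse small cell lung cancer (SCLC), through 4 genes chosen by name from 46078 genes counted, namely Reln, its receptors Vldlr and Lrp8, and its adaptor Dab1. Reln was chosen because it has one of the largest falls in these data, so its RNA level against the control tumors is given as a description and was not tested. The other 3 genes were taken for their role. The ATAC-seq peaks of the 4 genes were those overlapping the stretch from 5000 bp upstream of the gene start to the gene end, which held 61 of 111664 peaks.

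The mice shared conditional (loxP) alleles of Rb1, p53 and Rbl1 by the labels, while the study's text names Rbl1 in one place and Rbl2 in others. Adenovirus carrying Cre recombinase was delivered into the trachea at 8 weeks of age, and tumor cells were isolated 28 weeks later, from 3 animals per genotype. TKO mice carried only these alleles and served as controls. CARM1 knockout mice also carried a conditional allele of Carm1, an arginine methyltransferase, and NFIB mutant mice carried Nfib R388K, a knock-in that replaces the arginine of the transcription factor NFIB that CARM1 methylates. The Cre was not restricted to a cell type beyond the reach of the virus in the lung, and the knock-in was carried in the germline. By the study's methods the cells were sorted for a tdTomato reporter that Cre switches on, while its results speak of tumor biopsies and its ATAC-seq methods of cell lines, and the labels name no sort.

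Reelin is a large glycoprotein that neurons secrete and that guides where migrating neurons of the developing cortex come to rest. It binds 2 receptors of the low density lipoprotein receptor family, VLDLR and ApoER2, the product of Lrp8. The adaptor DAB1 docks on the receptors' cytoplasmic tails, is phosphorylated by the kinases Fyn and Src, and passes the signal to Crk proteins and Rap1, to PI3K and Akt, and to regulators of microtubules such as LIS1. Phosphorylated DAB1 is then degraded through Cullin 5 and SOCS7.

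The RNA-seq libraries held 15848866 to 20915057 reads on genes and the ATAC-seq libraries 26917178 to 47653979 reads on peaks. Levels are in CPM, the reads of a gene or peak as a share of its library scaled to 1000000 reads, after TMM scaling, and a gene was called higher or lower at an adjusted p under 0.1 in edgeR's quasi-likelihood test with a log2 fold change of at least 0.8, or 0.5 for a peak. Of 15514 genes tested, 38.8% were called with the CARM1 knockout and 45.8% with the NFIB mutation. Scaling by library totals alone shifted the median gene by -0.27 and -0.33 on the log2 scale in the respective mutants, and the median peak by 0.57 in each. With it, genes called higher made up 39.4 and 35.8% of the calls in place of 52.9 and 48.7%, and peaks called higher 65.9 and 64.3% in place of 54.4 and 53.6%. Carm1 stood at 97.7, 103 and 44.5 CPM in TKO libraries and at 63.4, 79.1 and 50.8 CPM in CARM1 knockout libraries, which overlapped. Which exons the conditional allele removes is not given in the sources used here, so reads over the whole gene do not check the deletion. Nfib was 420 to 580 CPM in TKO libraries, 74.5 to 216 CPM in CARM1 knockout and 83.3 to 105 CPM in NFIB mutant libraries.

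Markers of cell type moved with the genotypes. All 12 neuroendocrine genes listed, which mark SCLC cells, were over 1 CPM on average in TKO, and their summed level was 1766 to 3922 CPM there. In CARM1 knockout replicate 3 that sum was 1865 CPM. Calca alone gave 833 CPM of it, against 21.96, 11.37 and 5.14 CPM in TKO. The median of the neuroendocrine list was 91.6 CPM in that library, below the 131 to 216 CPM of TKO. In the other 5 mutant libraries the sum was 33.5 to 188 CPM. All 12 were below every TKO library in these 5 libraries, and 8 of 12 in all 6 mutant libraries. Neurod1 was at 0 in all 6. The 6 fibroblast genes summed to 11.1 to 63.4 CPM in TKO, 14457 to 25795 CPM in CARM1 knockout and 9479 to 15915 CPM in NFIB mutant libraries, and for 5 of the 6 every mutant library was above every TKO library. Leukocyte genes summed to 12.3 to 44.2 CPM in TKO and to 29.0 to 976 CPM in the mutants, with Cd3e at 0 in every library. Lung epithelial genes summed to 283 to 635 CPM in TKO and to 3.49 to 2806 CPM in the mutants. Most of the TKO sum was Nkx2-1, at 601, 386 and 236 CPM there and at 0.191 to 102 CPM in the mutants. The median of the list was 0.897 to 2.21 CPM in TKO and 0.159 to 98.3 CPM in the mutants. These shifts go with every result below, and their part in the results was not tested. In these bulk libraries, fewer cells of a type and less RNA per cell cannot be told apart.

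Reln, the ligand, was expressed in every TKO library and was near 0 in all 6 mutant libraries. Reln (ENSMUSG00000042453) spans chromosome 5 from 21884454 to 22344702 on the minus strand of GRCm38. Its level was 50.5, 75.3 and 12.98 CPM in TKO libraries 1 to 3, or 1051, 1721 and 293 reads. No read was counted in any CARM1 knockout library, where 3 reads would have been 0.169 to 0.203 CPM. In NFIB mutant libraries there were 6 reads in replicate 1, or 0.365 CPM, and none in replicates 2 and 3. The TKO libraries differed among themselves by 5.80-fold, with replicate 3 lowest, yet the lowest of them was still far above the highest mutant library. Against the level that 3 counts per library would give, the CARM1 knockout level was at least 254-fold lower, or at least 174-fold lower without TKO replicate 2. The ratio of the TKO mean to the NFIB mutant mean was 380, with a mutant mean that rests on the 6 reads of replicate 1.

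Dab1, the intracellular adaptor, was also low in the mutants, with reads left in 1 library of each genotype. Dab1 (ENSMUSG00000028519) spans chromosome 4 from 103619359 to 104744844 on the plus strand. It stood at 71.3, 25.4 and 10.7 CPM in TKO. CARM1 knockout replicates 1 and 2 held no read, and replicate 3 held 116 reads, or 6.52 CPM. NFIB mutant replicate 1 held 25 reads, or 1.52 CPM, and replicates 2 and 3 held none. All 6 mutant libraries were thus below all 3 TKO libraries, a pattern that 23.3% of all genes tested shared. The library with the highest Dab1 among the mutants was the one that also kept reads of neuroendocrine genes, though 8 of 12 were below every TKO library there. The log2 fold change was -4.03 in CARM1 knockout tumors (SE 2.30), with an adjusted p of 0.197, so Dab1 was not called there. Without replicate 3 of that genotype it was -12.3 with an adjusted p of 0.035, a fitted value against 2 libraries at 0, whose size depends on the prior count and is no bound. Dab1 fell in NFIB mutant tumors by 6.12 on the log2 scale (SE 2.56), with an adjusted p of 0.085. This call was lost without TKO replicate 1 (0.190) or 2 (0.132), or without NFIB mutant replicate 2 (0.179) or 3 (0.178), each an adjusted p. The mutants were not shown to differ from each other in Dab1, with a log2 difference of 2.09 (CARM1 knockout minus NFIB mutant, SE 2.20) and an adjusted p of 0.833.

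Lrp8, which encodes the receptor ApoER2, fell in both mutants but stayed expressed. Lrp8 (ENSMUSG00000028613) spans chromosome 4 from 107802261 to 107876840 on the plus strand. Its level was 260, 248 and 105 CPM in TKO, 60.8, 62.3 and 66.7 CPM in CARM1 knockout, and 46.0, 57.8 and 57.4 CPM in NFIB mutant libraries. The mutant libraries lay close together, 1.10-fold apart in CARM1 knockout and 1.26-fold in NFIB mutant tumors, and all were below the lowest TKO library. The TKO mean was 3.23 times the CARM1 knockout mean and 3.80 times the NFIB mutant mean. On the log2 scale these differences were -1.69 (SE 0.32, adjusted p 0.0070) and -1.93 (SE 0.32, adjusted p 0.0034), and Lrp8 was called lower under all 17 alternative settings in each mutant. Of all genes tested, 15.4% were called lower in both mutants. CARM1 knockout replicate 3, with its neuroendocrine genes, had 66.7 CPM of Lrp8 and so sat with the other mutant libraries, unlike its Dab1. Antisense genes Lrp8os1, Lrp8os2 and Lrp8os3 lie in the same stretch, and the strand setting of the counting is not given in the sources used here.

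Vldlr, the other receptor, varied from animal to animal in every genotype. Vldlr (ENSMUSG00000024924) spans chromosome 19 from 27216484 to 27254231 on the plus strand. It was at 4.61, 10.8 and 54.4 CPM in TKO, 14.4, 32.1 and 52.3 CPM in CARM1 knockout, and 55.8, 7.52 and 30.5 CPM in NFIB mutant libraries. The 3 genotypes overlapped fully, since both the lowest library and a library over 50 CPM belonged to TKO. The fitted log2 differences were 0.50 (SE 1.0, adjusted p 0.716) in CARM1 knockout and 0.43 (SE 1.0, adjusted p 0.747) in NFIB mutant tumors, so Vldlr was not called, and an SE of this size leaves room for a change in either direction. Without TKO replicate 3, the highest control, it was 2.13 and 2.04, still not called, with adjusted p of 0.119 and 0.117.

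**Figure D1:**
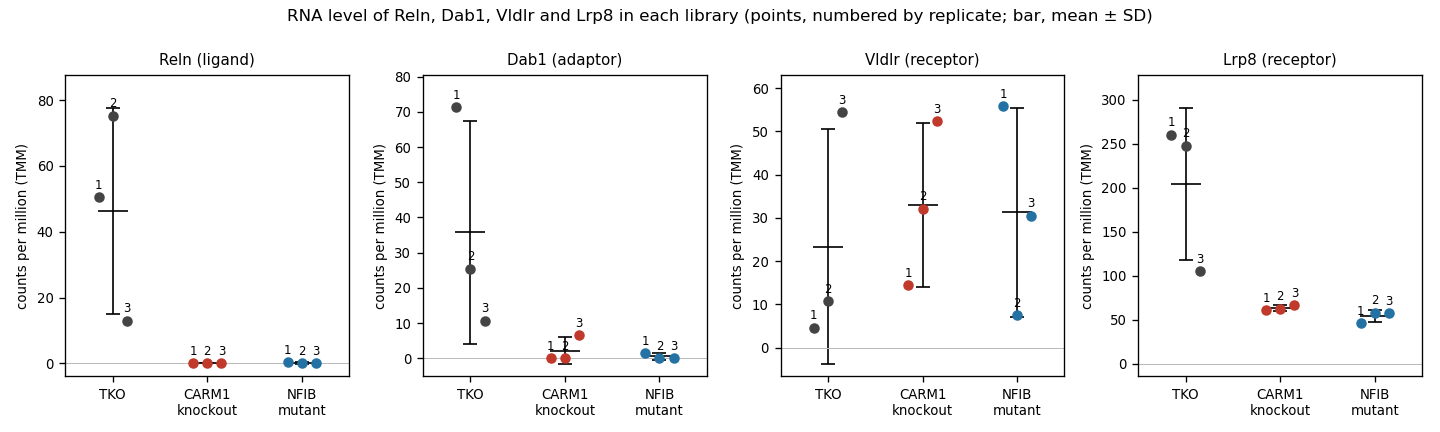
RNA level in CPM after TMM scaling (vertical axis, linear, its range set for each gene) of Reln, Dab1, Vldlr and Lrp8 in TKO, CARM1 knockout and NFIB mutant libraries, each point a library numbered by replicate and each bar the mean ± SD of 3. Reln sits at or near 0 in the mutants, as does Dab1 except for 6.52 CPM in CARM1 knockout replicate 3. Lrp8 is lower in all 6 mutant libraries than in any TKO library, and Vldlr overlaps between genotypes.

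Per kilobase of merged exon, Lrp8 was the most abundant of the 4 genes in TKO tumors, and in the mutants both receptors stayed expressed, Lrp8 at a lower level, while the ligand and the adaptor were at or near 0 in most libraries. In CARM1 knockout replicate 3, however, the ratio of Dab1 to Lrp8 in RPKM was 0.130, close to the 0.136 and 0.135 of TKO replicates 2 and 3, and in the other mutant libraries it was 0 to 0.0439. Mean levels in TKO, in RPKM (CPM divided by exon length in kilobases), were 19.4 ± 8.20 for Lrp8, 4.52 ± 3.99 for Dab1, 2.31 ± 2.70 for Vldlr and 1.95 ± 1.32 for Reln (SD, n = 3). Lrp8 ranked highest in all 3 TKO libraries. Dab1, Vldlr and Reln did not differ in level beyond their spread, and Vldlr went from the lowest of the 4 in TKO replicates 1 and 2 to the next after Lrp8 in replicate 3. With the length of the longest transcript in place of all exons, Reln stood at 3.95 RPKM and Vldlr at 2.92 RPKM, which turns their order. In CARM1 knockout tumors Lrp8 was at 6.02 ± 0.291 RPKM and Vldlr at 3.27 ± 1.89 RPKM. In NFIB mutant tumors they were at 5.11 ± 0.638 and 3.11 ± 2.40 RPKM. The ratio of Lrp8 to Vldlr in RPKM was 54.0, 22.04 and 1.84 in TKO libraries and between 0.790 and 7.36 in the 6 mutant libraries, so TKO replicate 3 fell within the mutant range.

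The genes closest to each of the 4 in pattern over the 9 libraries were found by the root mean square difference of log2 CPM after each gene was centred, with no test. For Reln, against a median distance of 3.91 over 15513 genes, they were Zic1 (0.32), a zinc finger transcription factor of neural development, the ephrin receptor gene Epha5 (0.53), the amino acid transporter gene Slc6a15 (0.72), Erbb4 (0.83), a receptor for neuregulins, and Rbfox1 (0.90), a neuronal splicing factor. Zic1 was at 81.0, 73.0 and 11.7 CPM in TKO and 0.365 CPM or less in the mutants. For Dab1 they were Nudt11 (0.58), Ccdc92b (0.69), Nudt10 (0.80), Cux2 (0.80) and Usp29 (0.82), against a median of 3.63. Each of these 5 kept reads in CARM1 knockout replicate 3, as Dab1 did, with Cux2, a homeobox factor of upper cortical neurons, at 15.8 CPM there and 0.608 CPM or less in the remaining mutants. Nudt10 and Nudt11 are near-identical neighbours that may share reads. For Lrp8 they were Ankrd26 (0.14), Exo1 (0.16), Tet3 (0.18), Pcgf6 (0.20) and Ezh2 (0.21), against a median of 1.11. Exo1 encodes a DNA repair nuclease, Tet3 a methylcytosine oxidase, and Pcgf6 and Ezh2 Polycomb proteins. Those nearest to Vldlr were Eps8l1, Nupr1, Pkig, Stab2 and Gm14167, at 0.45 to 0.69, against a median of 1.47. Among the 4 genes themselves, Dab1 ranked 224 of 15513 by closeness to Reln, Lrp8 1890 and Vldlr 12313.

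Chromatin at the start of Reln was open in TKO tumors and largely closed in both mutants. The peak over the start, at chr5:22343467-22345713, held 17.6, 28.4 and 20.7 CPM in TKO, 1.29, 1.48 and 1.21 CPM in CARM1 knockout, and 1.97, 0.962 and 0.785 CPM in NFIB mutant libraries. The genotypes did not overlap, and TKO replicate 3, lowest in Reln RNA, was not lowest here. Log2 fold changes were -4.06 (adjusted p 6.17e-05) and -4.17 (adjusted p 4.81e-05). By the study's results both assays were run on the same biopsies, and Reln was chosen by its RNA. The peaks are thus not independent evidence of its fall. The sample titles do not say whether same-numbered libraries of both assays come from the same animal. The 250 bases upstream of the RefSeq start, which this peak covers, are shown because they hold the promoter of the ligand (RefSeq, GRCm38.p6, minus strand), with none of the motifs below in them.
Reln promoter, chr5:22344706-22344955: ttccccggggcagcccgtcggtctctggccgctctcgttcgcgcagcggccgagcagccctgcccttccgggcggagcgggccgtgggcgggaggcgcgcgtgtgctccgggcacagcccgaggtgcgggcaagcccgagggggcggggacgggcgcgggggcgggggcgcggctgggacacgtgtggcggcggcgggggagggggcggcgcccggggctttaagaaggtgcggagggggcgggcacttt
Of these bases 80% are G or C, with 37 CpG, against medians of 52.4% and 6 over 32851 promoters of the same length.

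Of the 9 peaks of Reln, 8 could be tested, and 7 were lower and 1 was higher in each mutant. Over all 111116 peaks tested, 32.4% were called lower with the CARM1 knockout and 34.0% with the NFIB mutation. The deepest fall was in an intron, 251 kb into the gene, at chr5:22092885-22093859. This peak held 16.002, 22.4 and 1.44 CPM in TKO, 0.129, 0.211 and 0.0726 CPM in CARM1 knockout, and 0.359, 0.0481 and 0.0392 CPM in NFIB mutant libraries. TKO replicate 3 was far below the other TKO libraries here, and it also had the least Reln RNA, but it was still above every mutant library. The log2 fold change was -6.54 and -6.55 (adjusted p 0.00076 and 0.00070). The peak that rose lay 120 kb into the gene, at chr5:22224367-22224802, with 0.128, 0.247 and 0.254 CPM in TKO, 0.543, 1.44 and 0.774 CPM in CARM1 knockout, and 0.448, 2.17 and 3.34 CPM in NFIB mutant libraries. All mutant libraries were above all TKO libraries there, as at 33.1% of all peaks, and levels were low, with log2 fold changes of 2.13 (adjusted p 0.029) and 3.24 (adjusted p 0.0041), and without CARM1 knockout replicate 2 the first was 1.65 (adjusted p 0.104). The peak that could not be tested, 250 kb into the gene, held 0.211 to 3.68 CPM in TKO and at most 0.239 CPM in the mutants. The central 300 bases of the peak that fell most and of the peak that rose are shown on the plus strand of GRCm38, since these peaks moved in opposite directions within a single gene. Capitals mark TTGGC or GCCAA (the core of nuclear factor I sites), CAGCTG (an E-box) and TGANTCA (an AP-1 site), searched on both strands.
Reln peak that fell, chr5:22093223-22093522: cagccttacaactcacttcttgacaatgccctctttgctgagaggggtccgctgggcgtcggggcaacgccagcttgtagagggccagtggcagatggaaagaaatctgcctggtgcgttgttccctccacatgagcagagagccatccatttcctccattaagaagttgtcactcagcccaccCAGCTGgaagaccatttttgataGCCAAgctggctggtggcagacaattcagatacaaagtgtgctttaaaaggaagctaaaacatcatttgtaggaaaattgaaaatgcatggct
Reln peak that rose, chr5:22224435-22224734: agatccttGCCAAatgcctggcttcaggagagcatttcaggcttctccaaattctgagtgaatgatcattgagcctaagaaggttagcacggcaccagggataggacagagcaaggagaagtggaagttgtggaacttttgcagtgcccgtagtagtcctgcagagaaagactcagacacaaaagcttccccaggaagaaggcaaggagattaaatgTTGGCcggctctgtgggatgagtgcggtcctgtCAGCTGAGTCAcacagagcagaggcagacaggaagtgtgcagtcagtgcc
The sequence that fell held 1 nuclear factor I core and 1 E-box, and the one that rose held 2 such cores, 1 E-box and 1 AP-1 site, the last 2 sharing letters.

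Every peak of Dab1 lost accessibility in both mutants. All 35 peaks were tested and all 35 were called lower in each mutant, where 30.8% of all peaks were called lower in both. The log2 fold changes ran from -5.81 to -2.38 with a median of -4.02 in CARM1 knockout, and from -6.19 to -2.51 with a median of -4.24 in NFIB mutant tumors, where the median of all peaks was 0.22 in each. In 31 of the 35 all 6 mutant libraries were below all TKO libraries, a pattern of 28.6% of all peaks. Without CARM1 knockout replicate 3 all 35 were again called in both. Accessibility at Dab1 was thus lower also in CARM1 knockout tumors, where the fall of its RNA was not called.

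The peak at the annotated start of Dab1, at chr4:103619252-103620164, was small, with 5.80, 3.92 and 6.04 CPM in TKO, 0.517, 0.326 and 1.596 CPM in CARM1 knockout, and 0.448, 0.361 and 0.275 CPM in NFIB mutant libraries. Here the log2 fold changes were -2.69 (adjusted p 0.0031) and -3.86 (adjusted p 0.00058), and among the mutants CARM1 knockout replicate 3 was highest. The most accessible peak of the gene lay 749 kb further in, at chr4:104366629-104369306, over another start that RefSeq gives, and was picked out after its values were seen. It held 50.2, 44.6 and 31.9 CPM in TKO. CARM1 knockout libraries had 0.568, 0.614 and 8.49 CPM there, and NFIB mutant libraries 1.17, 1.01 and 0.471 CPM. Replicate 3 of the CARM1 knockout, the mutant library with the most Dab1 reads, was again highest of the mutants and below all TKO libraries. Its log2 fold changes were -3.71 (adjusted p 0.0047) and -5.59 (adjusted p 0.00084).

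The peaks of Dab1 with the deepest falls by the naming rule were both intronic. The peak 188 kb from the start, at chr4:103807020-103807918, held 6.98, 8.75 and 5.9998 CPM in TKO and 0.0962 to 0.387 CPM in the mutants. The peak 839 kb from the start, at chr4:104458350-104459338, held 9.56, 5.16 and 5.62 CPM in TKO and 0.0241 to 0.290 CPM in the mutants. Neither overlapped between TKO and mutants, and the log2 fold changes were -5.15 and -5.82 for the former and -5.55 and -5.43 for the latter, with adjusted p of at most 0.00040. Their central 300 bases are shown as the sites of the deepest loss at the adaptor gene, on the plus strand of GRCm38 and with the same motifs in capitals.
Dab1 peak 188 kb from the start, chr4:103807320-103807619: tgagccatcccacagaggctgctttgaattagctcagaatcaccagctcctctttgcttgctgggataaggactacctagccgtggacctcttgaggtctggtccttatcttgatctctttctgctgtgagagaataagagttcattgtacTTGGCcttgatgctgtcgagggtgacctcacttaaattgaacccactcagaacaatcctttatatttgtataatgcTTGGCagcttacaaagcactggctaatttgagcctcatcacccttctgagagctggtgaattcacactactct
Dab1 peak 839 kb from the start, chr4:104458695-104458994: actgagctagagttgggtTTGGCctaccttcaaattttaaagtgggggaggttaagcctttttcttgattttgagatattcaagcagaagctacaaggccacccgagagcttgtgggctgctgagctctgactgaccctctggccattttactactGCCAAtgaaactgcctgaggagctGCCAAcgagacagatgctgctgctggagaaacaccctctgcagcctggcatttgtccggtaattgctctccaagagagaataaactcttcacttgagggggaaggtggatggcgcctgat
They held 2 and 3 nuclear factor I cores, with no E-box of this form and no AP-1 site.

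At Lrp8 the start stayed open, and most peaks inside the gene and 1 upstream of it fell. The start peak, at chr4:107801341-107804688, held 99.5, 101 and 76.2 CPM in TKO, 55.5, 66.5 and 57.9 CPM in CARM1 knockout, and 55.1, 71.1 and 62.3 CPM in NFIB mutant libraries. All mutant libraries were below all TKO libraries, by little. The log2 fold change of -0.62 (adjusted p 0.0048) and -0.56 (adjusted p 0.0081) became -0.026 and 0.032 with library totals alone, which takes it past 0 in NFIB mutant tumors. It was -0.24 and -0.17 with totals that leave out the largest peaks and -0.25 and -0.11 with scaling on start-site peaks of uniform genes, so the calls were lost under these 3 scalings, while DESeq2 size factors kept them (-0.80 and -0.71). They were also lost with at least 10 counts in every library (-0.46 and -0.39) and, as their size implies, at a threshold of 1. In NFIB mutant tumors the call was also lost without TKO replicate 1 (-0.50), TKO replicate 2 (-0.48) or NFIB mutant replicate 1 (-0.46). Of the 16 peaks, 13 fell and 1 rose with the CARM1 knockout, and 12 fell and 1 rose with the NFIB mutation. The median log2 fold change was -2.41 and -2.08. The upstream peak, picked out after its values were seen, held 2.13 to 3.17 CPM in TKO and 0.491 to 1.59 CPM in the mutants, with log2 fold changes of -1.26 (adjusted p 0.047) and -1.96 (adjusted p 0.0069). An intronic peak 26.7 kb from the start, at chr4:107828241-107829588, held 20.05, 19.8 and 19.9 CPM in TKO, 0.904, 1.09 and 2.25 CPM in CARM1 knockout, and 1.58, 1.66 and 1.26 CPM in NFIB mutant libraries. The TKO libraries were nearly equal there, and the log2 fold change was -3.81 and -3.73 (adjusted p 7.07e-05 and 6.70e-05). A peak whose middle lay in an exon, 55.0 kb from the start, fell by 4.16 and by 4.05 on the log2 scale.

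A single intronic peak of Lrp8 opened in the mutants, 62.8 kb from the start, at chr4:107864595-107865545. It held 0.510, 0.185 and 0.845 CPM in TKO, 8.16, 5.88 and 2.49 CPM in CARM1 knockout, and 7.26, 7.99 and 13.95 CPM in NFIB mutant libraries. Every mutant library was above every TKO library, and CARM1 knockout replicate 3 was the lowest of the mutants. The log2 fold change was 3.44 (adjusted p 0.0011) and 4.26 (adjusted p 0.00036). The central 300 bases of the Lrp8 peaks at 26.7 and 62.8 kb are shown because they moved in opposite directions within the gene, on the plus strand of GRCm38 with the motifs in capitals.
Lrp8 peak that fell, chr4:107828765-107829064: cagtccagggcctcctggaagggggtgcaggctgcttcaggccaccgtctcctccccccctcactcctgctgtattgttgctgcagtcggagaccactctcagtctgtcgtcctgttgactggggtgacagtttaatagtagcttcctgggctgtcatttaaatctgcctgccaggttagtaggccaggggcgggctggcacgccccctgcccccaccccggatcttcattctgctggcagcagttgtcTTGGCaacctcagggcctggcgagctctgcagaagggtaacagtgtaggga
Lrp8 peak that rose, chr4:107864921-107865220: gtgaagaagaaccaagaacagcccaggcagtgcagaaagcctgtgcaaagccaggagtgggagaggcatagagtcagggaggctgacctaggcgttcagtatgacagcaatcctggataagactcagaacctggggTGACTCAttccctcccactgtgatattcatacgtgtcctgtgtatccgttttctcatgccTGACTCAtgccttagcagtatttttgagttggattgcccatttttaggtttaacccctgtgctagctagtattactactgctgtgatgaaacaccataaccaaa
The former held 1 nuclear factor I core and the latter 2 AP-1 sites.

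Vldlr had a single peak, over its start at chr19:27216397-27219432, which held 7.17, 15.6 and 27.2 CPM in TKO, 18.9, 30.6 and 22.7 CPM in CARM1 knockout, and 23.1, 16.6 and 18.3 CPM in NFIB mutant libraries. The genotypes overlapped, and in TKO the order of the libraries was that of their Vldlr RNA. Its log2 fold changes were 0.53 (adjusted p 0.248) and 0.22 (adjusted p 0.634). Without TKO replicate 3 it was 1.08 (adjusted p 0.017) and 0.77 (adjusted p 0.064), past the threshold in both mutants. In CARM1 knockout tumors it also passed with library totals alone (1.06), with totals that leave out the largest peaks (0.85) and with scaling on start-site peaks of uniform genes (0.90).

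**Figure D2:**
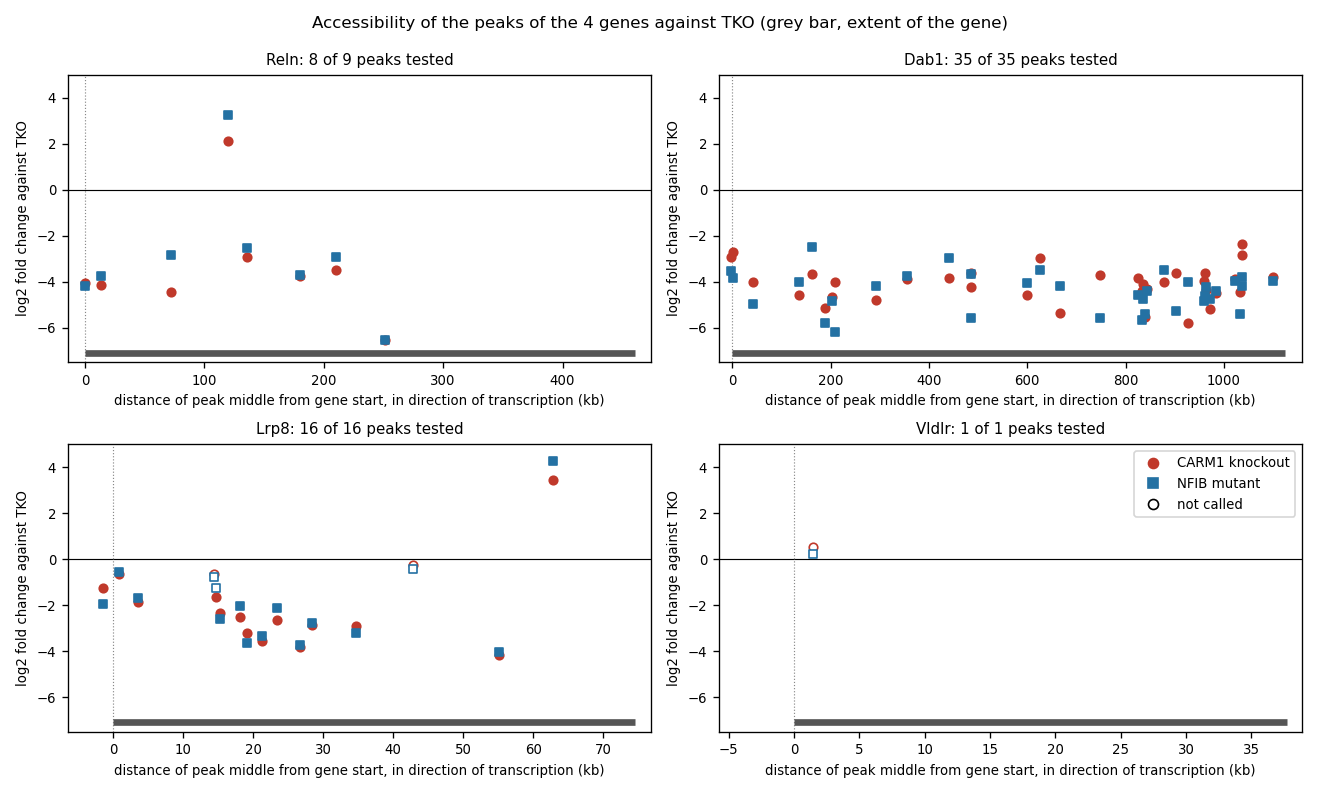
Log2 fold change of accessibility against TKO (vertical axis) for each tested peak by its distance from the gene start in kb (horizontal axis), for CARM1 knockout (circles) and NFIB mutant (squares) tumors, filled where called. All 35 Dab1 peaks lie below 0, 7 of 8 Reln peaks do, Lrp8 holds 1 peak well above 0 at 62.8 kb, and the Vldlr peak lies near 0.

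Summed over its peaks, accessibility at Reln was 49.95, 76.5 and 31.8 CPM in TKO, 2.97 to 4.47 CPM in CARM1 knockout and 4.63 to 5.77 CPM in NFIB mutant libraries, over 6821 bp. At Dab1 the sum was 245, 206 and 148 CPM in TKO, 6.64, 6.59 and 24.6 CPM in CARM1 knockout, and 6.40 to 10.8 CPM in NFIB mutant libraries, over 28039 bp. At Lrp8 it was 178 to 200 CPM in TKO, 75.5 to 89.9 CPM in CARM1 knockout and 76.8 to 94.1 CPM in NFIB mutant libraries, over 15999 bp. All 3 sums were lower in each mutant library than in any TKO library. Of the 60 tested peaks of the 4 genes, 55 fell and 2 rose with the CARM1 knockout, and 54 fell and 2 rose with the NFIB mutation, while 71.1 and 73.3% of all peaks were called in either direction. None of the 60 was called between the mutants, where edgeR called none of the 111116 peaks, with 6813 at an unadjusted p under 0.05, and DESeq2 called 529 higher and 548 lower.

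**Figure D3:**
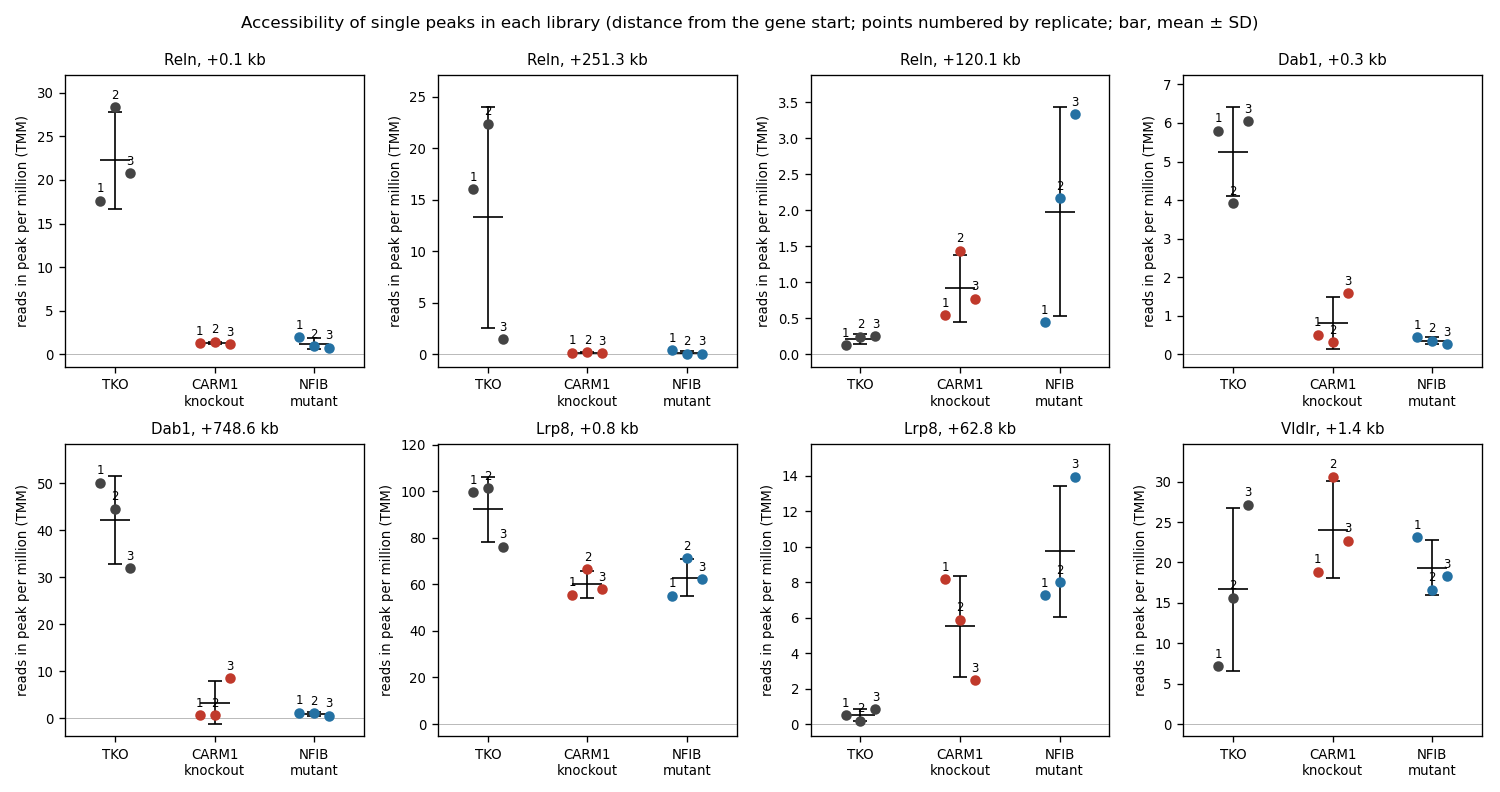
Accessibility of single peaks in CPM after TMM scaling (vertical axis, linear, its range set for each peak) in each library, numbered by replicate, with bars for the mean ± SD of 3, for 8 peaks named by gene and distance from the gene start. The peaks at +0.1 kb of Reln and +748.6 kb of Dab1 are near 0 in the mutants except for 8.49 CPM in CARM1 knockout replicate 3 at Dab1, and those at +120.1 kb of Reln and +62.8 kb of Lrp8 are higher in the mutants.

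Around Reln and Dab1 more of the neighbouring peaks rose than fell, as over all peaks, of which 38.7% rose and 32.4% fell with the CARM1 knockout, and 39.3% rose and 34.0% fell with the NFIB mutation. Within 500000 bp of the Dab1 window, outside it, 28 of 51 peaks rose and 12 fell with the CARM1 knockout, and 27 rose and 14 fell with the NFIB mutation. Around Reln, 18 of 35 peaks rose and 8 fell with the CARM1 knockout, and 17 rose and 8 fell with the NFIB mutation. Of the genes near Reln, 9 of 31 passed the filter on low counts, of which 1 rose and 2 fell with the CARM1 knockout, and 0 rose and 1 fell with the NFIB mutation. Near Dab1 7 of 20 genes passed, of which 2 rose and 1 fell, and 4 rose and 1 fell, in the same order. Near Lrp8 12 of 29 passed, of which 2 rose and 0 fell, and 3 rose and 1 fell. Near Vldlr 1 of 5 passed and was not called. Around Vldlr 26 of 32 peaks were called higher and 1 lower in each mutant, with a median log2 fold change of 2.89 and 3.19. Around Lrp8 28 of 114 peaks rose and 53 fell with the CARM1 knockout, and 33 rose and 55 fell with the NFIB mutation.

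Motif letters in the central 300 bases of the 61 peaks were counted beside those of all peaks, as a description. The full palindrome of nuclear factor I, with TTGGC and GCCAA 5 bases apart, was in none of the 61 and in 0.1003% of all 111664 peaks. Its core, TTGGC on either strand, was in 60.7% of the 61, in 50.6% of all peaks and in 56.9% of all peaks called lower in both mutants. The E-box CAGCTG was in 27.9, 22.7 and 28.1% of them. The AP-1 site TGANTCA was in 16.4, 23.7 and 7.89%, and in 41.7% of all peaks called higher in both mutants. A match of letters does not show that a factor binds there, and its absence from this window says nothing of the factor.

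Most genes that cut reelin or regulate its cutting rose in both mutants, while Serpini1 fell. Of 76 other genes listed for the pathway, 75 were tested, 20 rose and 9 fell with the CARM1 knockout, and 23 rose and 11 fell with the NFIB mutation. Together 38.7 and 45.3% of the list were called, near the 38.8 and 45.8% of all genes. Over all genes 20.5% rose and 18.3% fell with the CARM1 knockout, and 22.3% rose and 23.5% fell with the NFIB mutation. On the log2 scale the list's median was 0.26 and 0.35, and that over all genes -0.03 and -0.05. Among 8 proteases and protease regulators, 6 rose and 1 fell in CARM1 knockout and 7 rose and 1 fell in NFIB mutant tumors. Adamts3, a protease that cleaves reelin, was at 0, 0.0437 and 0 CPM in TKO, 6.03, 19.6 and 0.618 CPM in CARM1 knockout, and 22.2, 13.7 and 0.826 CPM in NFIB mutant libraries (adjusted p 0.014 and 0.0099). Every mutant library was above every TKO library, as for 22.3% of all genes, though replicate 3 of each mutant was under 1 CPM. Adamts2, which also cleaves procollagen, was 0.744 to 7.71 CPM in TKO and 102 to 265 CPM in the mutants (adjusted p 0.0047 and 0.0035). Serpini1, which encodes neuroserpin, a protease inhibitor of neurons, fell, by 2.18 and by 1.47 on the log2 scale (adjusted p 0.024 and 0.067). Its level was 26.9 to 53.2 CPM in TKO and 7.86 to 9.55 CPM in CARM1 knockout libraries. In NFIB mutant libraries it was 27.5, 7.40 and 6.48 CPM, so replicate 1 lay within the TKO range.

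Genes listed as other ligands and as relatives of the receptors rose more often than they fell, in short lists. With the CARM1 knockout and the NFIB mutation, 38.8 and 45.8% of all genes were called. The share called was 50% of the listed ligands in each mutant, and 28.6 and 42.9% of the receptors. Of 6 genes listed as other ligands, 3 rose and 0 fell in each mutant. Clu, which encodes the secreted chaperone clusterin, was 2.35, 7.09 and 4.12 CPM in TKO, 23.7, 35.0 and 10.1 CPM in CARM1 knockout, and 691, 203 and 87.6 CPM in NFIB mutant libraries (adjusted p 0.060 and 0.0027). Thbs1, the matrix protein thrombospondin, was 137, 5.47 and 2.92 CPM in TKO and 701 to 2517 CPM in the mutants (adjusted p 0.031 and 0.029). Pla2g7, the last of the 3, encodes a lipoprotein-borne phospholipase, and its place among ligands was not checked here. It was 0.0480 to 1.14 CPM in TKO and 2.41 to 58.4 CPM in the mutants. Of 7 other receptors of the family tested, 2 rose with the CARM1 knockout and 3 with the NFIB mutation, with none called lower. Lrp1, a large endocytic receptor, was 178, 149 and 128 CPM in TKO, 3075, 2289 and 1719 CPM in CARM1 knockout, and 2989, 5792 and 1516 CPM in NFIB mutant libraries (adjusted p 0.0019 and 0.0010). Lrp2, the endocytic receptor megalin, was at most 0.620 CPM in TKO and 2.25 to 19.4 CPM in the mutants. Sorl1, a sorting receptor, was not called, at 39.3 to 74.3 CPM in TKO and 0.875 to 55.9 CPM in the mutants. Lrp1b was not tested, with reads in TKO replicate 3 at 7.13 CPM and at most 0.136 CPM elsewhere.

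Of 5 adaptors related to DAB1, 2 rose and 1 fell in CARM1 knockout, and 2 rose and 0 fell in NFIB mutant tumors. Called were thus 60 and 40% of them, against 38.8 and 45.8% of all genes. Dab2, which links receptors of this family to clathrin, was 2.88, 1.75 and 0.0443 CPM in TKO, 229, 229 and 246 CPM in CARM1 knockout, and 129, 327 and 169 CPM in NFIB mutant libraries. The groups were far apart, with log2 fold changes of 7.23 and 7.06 (adjusted p 0.0029 and 0.0023). Apbb1, which binds the amyloid precursor protein, fell in CARM1 knockout tumors, by 0.89 on the log2 scale, and was at -0.40 in NFIB mutant tumors (adjusted p 0.235). Of 10 partners of the receptors, 4 rose and 1 fell in each mutant, so that 50% were called in each. Itgb1 and Itga3, whose products form an integrin that reelin binds, had log2 fold changes of 2.11 and 1.73 and of 2.55 and 2.62, all called. The calls of Itga3 were less firm (adjusted p 0.085 and 0.070) than those of Itgb1 (0.0011 and 0.0016). Itga3 was at 27.5, 4.90 and 34.9 CPM in TKO and 27.7, 290 and 76.9 CPM in CARM1 knockout libraries, which overlapped. Efnb3, an ephrin ligand, was 9.58 to 16.9 CPM in TKO and 0.610 to 1.34 CPM in the mutants (adjusted p 0.0012 and 0.0013).

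The kinases next to DAB1 were not called, while Socs7 and some genes of neuronal microtubules were lower. Of 11 genes of the kinase, Crk and Rap1 branch, 0 were called in either mutant, where 38.8 and 45.8% of all genes were called. Fyn was 110, 137 and 131 CPM in TKO, 72.1, 51.4 and 65.7 CPM in CARM1 knockout, and 22.6, 90.0 and 82.5 CPM in NFIB mutant libraries. Each mutant library was below each TKO library, but the adjusted p was 0.117 and 0.118. Rap1b was at log2 fold changes of 0.68 and 0.74 and Cdh2, a neuronal cadherin, at -0.54 and -0.59. Receptor and adaptor turnover held 7 genes, of which 2 rose and 1 fell in CARM1 knockout, and 2 rose and 2 fell in NFIB mutant tumors. That is 42.9 and 57.1% called. Socs7, which targets phosphorylated DAB1 for degradation, was 115 to 152 CPM in TKO and 30.8 to 48.5 CPM in the mutants (adjusted p 0.0017 and 0.00076). Mylip, a ligase that degrades the lipoprotein receptors, rose by 0.84 and by 1.61 on the log2 scale. The PI3K and Akt branch held 9 genes, of which 0 rose and 2 fell in CARM1 knockout, and 0 rose and 3 fell in NFIB mutant tumors. The share called, 22.2 and 33.3%, was below that of all genes, and the branch's median log2 fold change was -0.21 and 0.01. Gsk3b, a kinase downstream of Akt, fell by 0.88 and by 1.23 on the log2 scale. Pik3r1, a regulatory subunit of PI3K, was at -0.80 (adjusted p 0.098) and fell in NFIB mutant tumors by 1.26.

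Among 12 genes of the cytoskeleton and Lis1 branch, 1 rose and 3 fell in CARM1 knockout, and 2 rose and 4 fell in NFIB mutant tumors. The share called was 33.3 and 50%, near the 38.8 and 45.8% of all genes. Of all genes, 18.3 and 23.5% fell. Cdk5r1, the neuronal activator of the kinase CDK5, was 62.3, 53.4 and 34.5 CPM in TKO and 2.04 to 9.27 CPM in the mutants (adjusted p 0.0061 and 0.0028). Dcx, the microtubule protein doublecortin of migrating neurons, was 249, 97.6 and 656 CPM in TKO, 0, 0 and 23.4 CPM in CARM1 knockout, and 0.426, 0.123 and 0 CPM in NFIB mutant libraries (adjusted p 0.072 and 0.016). Mapt, which encodes tau, was 57.9 to 370 CPM in TKO, 0.203, 0.583 and 14.8 CPM in CARM1 knockout, and 0.699 to 5.35 CPM in NFIB mutant libraries (adjusted p 0.050 and 0.026). In Dcx and Mapt, as in Dab1, CARM1 knockout replicate 3 was the highest of the mutant libraries. Pafah1b1, which encodes LIS1 itself, was at log2 fold changes of -0.47 and -0.47 and was not called.

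**Figure D4:**
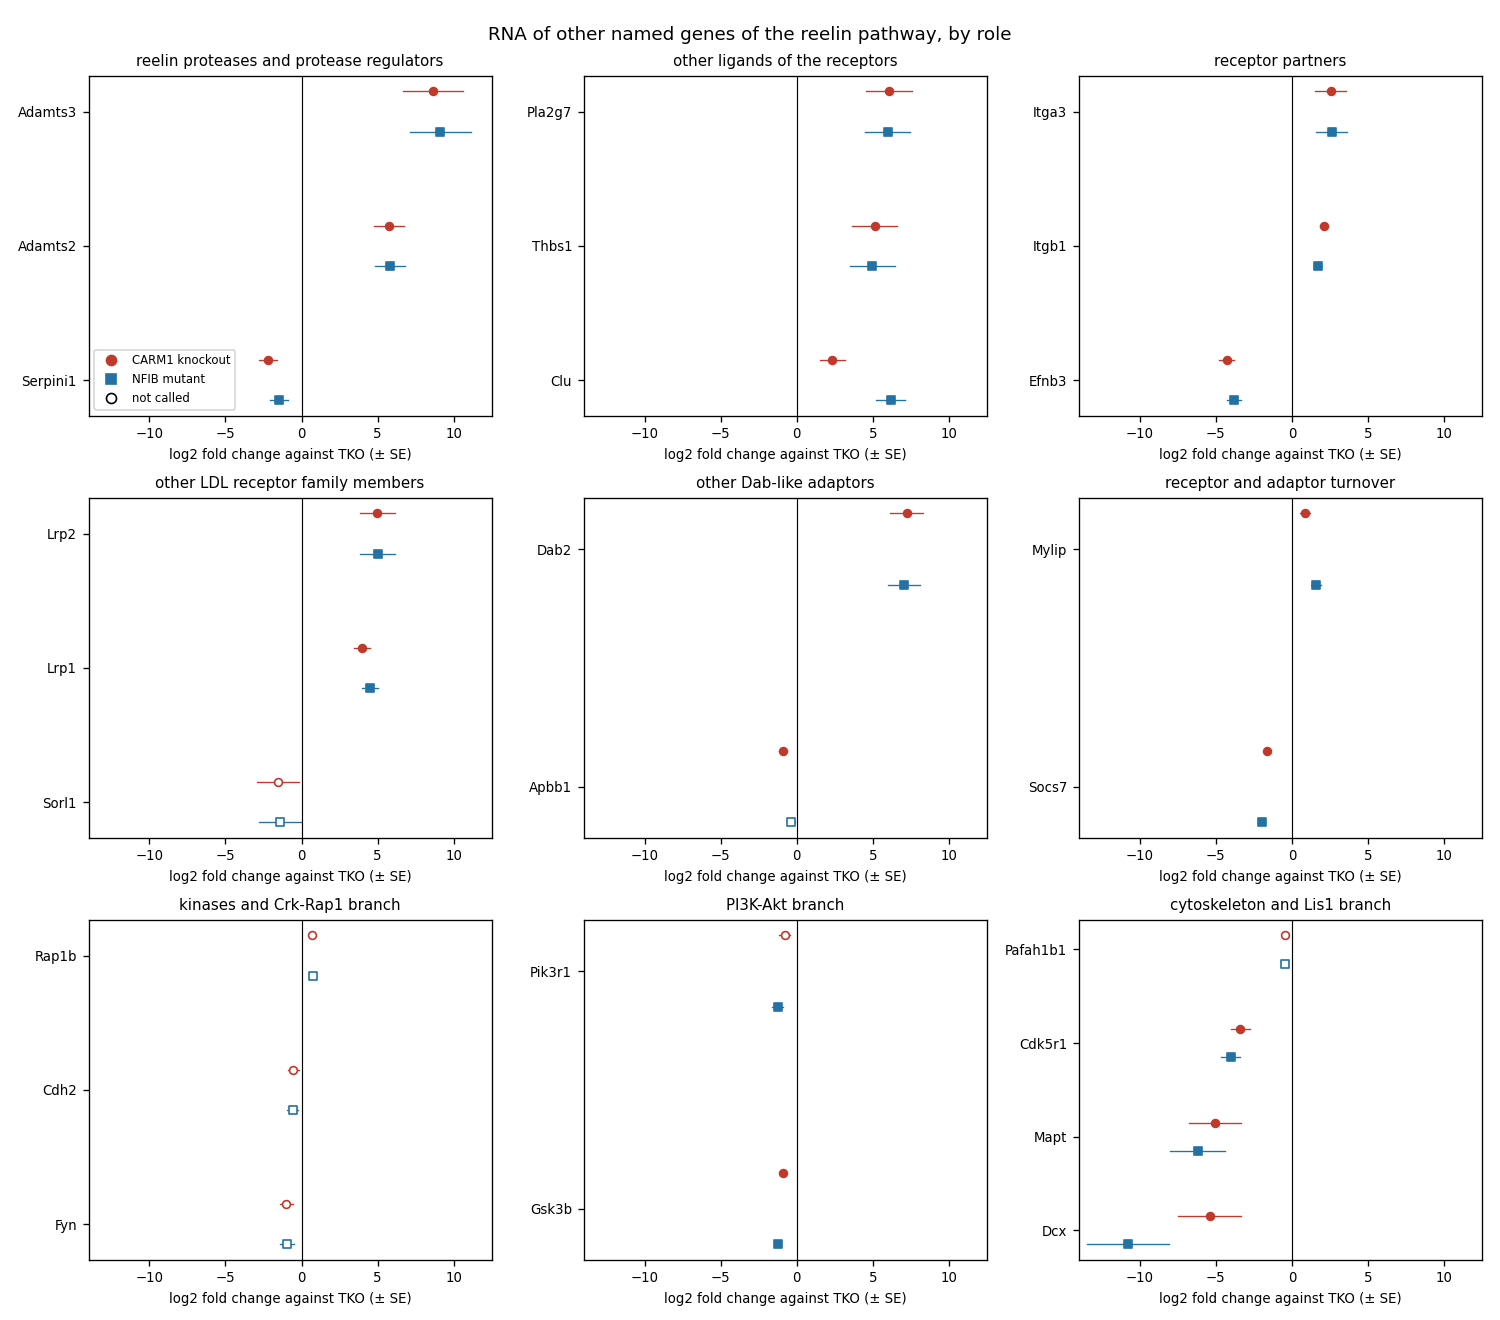
Log2 fold change of RNA against TKO ± SE (horizontal axis) for 25 genes of the reelin pathway named in the text, grouped by role, for CARM1 knockout (circles) and NFIB mutant (squares) tumors, filled where called. Adamts2 and Adamts3 lie to the right and Serpini1 to the left, Fyn, Rap1b and Cdh2 of the kinase branch are not filled, and Dcx, Mapt and Cdk5r1 lie to the left in the cytoskeleton branch.

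Between the mutants edgeR called no gene in the main fit. None of the 4 genes and none of the 75 others was called between CARM1 knockout and NFIB mutant tumors, where edgeR called none of 15514 genes, with 1414 at an unadjusted p under 0.05. For Lrp8 the difference was 0.24 on the log2 scale (CARM1 knockout minus NFIB mutant, SE 0.31, adjusted p 0.882), and for Vldlr it was 0.07 (SE 1.0, adjusted p 0.994). With at least 10 counts in every library, edgeR called 2 of 10947 genes higher and 3 lower between the mutants. DESeq2 called 270 genes higher and 184 lower between them, of which 1 and 2 were other pathway genes, and none of Dab1, Vldlr and Lrp8.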

How the data were processed

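RNA-seq and ATAC-seq were measured in 9 libraries each, 3 per genotype. Count columns headed C were read as TKO, KO as CARM1 knockout and N as NFIB mutant, after the names in the study. The authors deposited raw counts of reads per gene (trimmed, mapped to GRCm38 with HISAT2, counted with htseq-count) and raw counts per peak of 1 merged set, made with featureCounts 1.6.3 per the file headers. The peak caller was MACS2 by the study's methods and Genrich by the submitters' processing notes, and versions of other tools are not given in the sources used here. The 5 summary rows of htseq-count stayed out of library sizes and tests, with ambiguous reads at 3.84 to 4.50%.

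From the counts, edgeR 4.0.16 in R 4.3.3 was fitted to all genes or all peaks (TMM, filterByExpr, quasi-likelihood test, 1 model of 9 libraries, Benjamini-Hochberg over the whole table), with scripts tested on simulated data. RPKM was computed from TMM-scaled CPM and GENCODE merged exon lengths. By the naming rule the text names the 4 genes, up to 3 genes per role with the largest mean change of the mutants in size, the 5 genes nearest in pattern to each, peaks within 1000 bp of a start, and up to 2 falls and 2 rises per gene called in both mutants at 1 CPM or more. Serpini1, Lrp1b, Pafah1b1, single cell type markers, the untested Reln peak, the Lrp8 peak upstream and the Dab1 peak over another start fall outside that rule and were chosen after their values were seen. Alternatives were other scalings, filters and thresholds, DESeq2 1.42.0, only the genotypes compared, a replicate block, and leaving out each library. Limits that a count of 0 allows use 3 counts and cover counting error only. The members and lists were chosen with earlier results of these data known. Some genes that this rule or the lists hold are not reported here by name.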

Additional observations from a re-analysis of the deposited data

How the results depend on the processing

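Of 375 recomputed main values and counts, 356 kept their call or a count within 1.5 times. Values with no call could change sign, as Dab1 and Vldlr did between the mutants. This tally is no measure of robustness, since some of its entries could hardly change. Counts between the mutants were mostly 0, and placing peaks by their middle gave the same peaks. Single peaks and Reln RNA are not in the tally. Among them, the Lrp8 start peak lost its call in 5 of 10 alternatives in each mutant, left-out libraries apart. Leaving out 1 library at a time gave Dab1 log2 fold changes from -12.3 to -3.04 in CARM1 knockout tumors, called only without CARM1 knockout replicate 3, and from -12.4 to -5.13 in NFIB mutant tumors, called in 5 of 9 such fits. The NFIB mutant call was also lost without the filter on low counts (-6.08, adjusted p 0.148) and with a replicate block (-7.19, adjusted p 0.103), and over all alternatives its adjusted p ran from 0.037 to 0.190. The block changed no other call. Same-numbered RNA-seq libraries correlated at -0.297 to 0.118 in their deviations from the genotype means. With 3 animals per genotype this does not settle whether same-numbered animals shared a litter or batch. The study states that littermates served as controls. Lrp8 kept its RNA call in all alternatives and Vldlr RNA was called in none. Peaks of the 4 genes called higher with the CARM1 knockout numbered 1 to 3 when a library was left out, with 1 without CARM1 knockout replicate 2. With at least 10 counts in every library, 13 peaks were called lower and 0 higher in each mutant, since fewer peaks were tested, and Dab1 and Reln RNA could not be tested. With library totals alone, other pathway genes called lower numbered 14 with the CARM1 knockout and 18 with the NFIB mutation in place of 9 and 11, and the Lrp8 start peak stood at 0.032 in NFIB mutant tumors. A threshold of 1.5 left 7 in place of 11. DESeq2 called 1 pathway gene higher and 2 lower between the mutants, where edgeR called none. With the longest transcript as length, TKO means were 3.95 RPKM for Reln and 30.8 RPKM for Lrp8. For these changes, other than those from fewer samples, fewer peaks or another length or threshold, the cause was not tested. With 3 animals per genotype, a change in Vldlr within the spread between animals was not detectable.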
